A study of Mus musculus with 18 samples.

Results

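Alternative 5′ splice sites (donors) that compete in pairs were examined: 18918 events of the deposited splicing table in which an exon can end at either of 2 donors and for which all 18 libraries had coverage. They were taken from 37344 two-site alternative 5′ events, of which 18426 had no coverage score in at least 1 library, and from 661941 events of every kind. Each event was chosen by its type, its number of sites, a distance above 0 between the donors and its coverage score, and no splicing level entered the choice. The events lay in 7376 genes, and 52 events shared a donor with another. In 2121 events (11.2%) the donors were 4 nucleotides apart.

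RNA-seq was performed on mouse embryonic fibroblasts (MEFs) that carry a doxycycline-inducible cassette of Oct4, Klf4, Sox2 and Myc at the collagen locus (Collagen-OKSM) together with the M2rtta transactivator, in 2 libraries for each of 9 groups. In the knockdown dataset (12 libraries), non-infected fibroblasts at day 0 (NI) were followed by cells at day 12 of induction that carried a scrambled shRNA (shSCR), 1 of 2 shRNAs against Cpsf3 (shCPSF3#1 and shCPSF3#2), or 1 of 2 shRNAs against Hnrnpul1 (shUL1#1 and shUL1#2). In the overexpression dataset (6 libraries), NI cells at day 0 were followed by cells at day 12 carrying an empty retrovirus (Empty) or T7-tagged TIA1 (T7-TIA1). Every day 12 culture had been infected, sorted for GFP and grown on irradiated feeder cells, so RNA of feeder cells can be present at day 12, and NI differs from every day 12 group in infection as well as in time. The labels disagree in one field, where shUL1#2 is dated to day 0 and the non-infected overexpression controls to day 12, and the titles of the libraries were followed.

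A 5′ splice site marks the boundary between an exon and the intron after it. It is recognised first by the U1 small nuclear RNP, whose RNA pairs with the last bases of the exon and the first bases of the intron, and later by U6 RNA. Nearly all introns begin with GT and a small part with GC. When 2 donors compete, use of the downstream one lengthens the exon, and the reading frame is kept only if the distance is a multiple of 3. CPSF3 is the endonuclease that cuts pre-mRNA at the poly(A) site, HNRNPUL1 is a nuclear RNA-binding protein, and TIA1 binds U-rich RNA downstream of donors and helps to recruit U1.

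The sequences below show what such pairs look like, from 3 bases before the upstream donor onwards, with the first 2 intron bases at each donor in capitals. They were read from GENCODE M21 transcripts of build GRCm38 (the same assembly as mm10). The bases after the downstream donor can be read only where a transcript retains them, and otherwise the run ends at the downstream donor, where the lengthened exon stops.

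Slc39a11, chr11:113463951-113463974, minus strand, 21 nucleotides apart: tagGTagcactgggcttctttcag

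Ubr3, chr2:69991623-69991637, plus strand, 12 nucleotides apart: ccaGTaagcatcagt

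Sept6, chrX:36942055-36942084, minus strand, 27 nucleotides apart: tcgGTgagcgagatcaatggaaccatgaat

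Rnf13, chr3:57796283-57796295, plus strand, 10 nucleotides apart: acaGTaagtacag

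Mrpl28, chr17:26124706-26124724, plus strand, 10 nucleotides apart, both donors shown: aagGCaagcagggGTtagt

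Tia1, chr6:86416394-86416407, plus strand, 5 nucleotides apart, both donors shown: tggGTaagGTaagc

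Arhgef12, chr9:43022811-43022817, minus strand, 4 nucleotides apart: gatGTag

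Stk11, chr10:80129694-80129700, plus strand, 4 nucleotides apart: cagGCag

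The first 5 are shown because their donor use differed between groups, Tia1 because it is the overexpressed gene, and the last 2 because they stand for the pairs 4 nucleotides apart. In Stk11 the 4 bases between the donors read GCAG, so the upstream donor begins with GC, whereas in Arhgef12 they read GTAG.

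The distance between donors had a median of 38 nucleotides and reached 499. A distance of 4 nucleotides was the most frequent, with 2121 events against 714 at 5 nucleotides, 514 at 3, 420 at 6 and 360 at 2. Distances that are a multiple of 3 made up 33.6% of the events (6359), and in 93.2% the last base before the upstream donor was coding, so most of the pairs, all those at 4 nucleotides included, shift the frame wherever the sequence after them is also coding. The plot of events by distance shows the peak at 4 nucleotides.

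**Figure D1:**
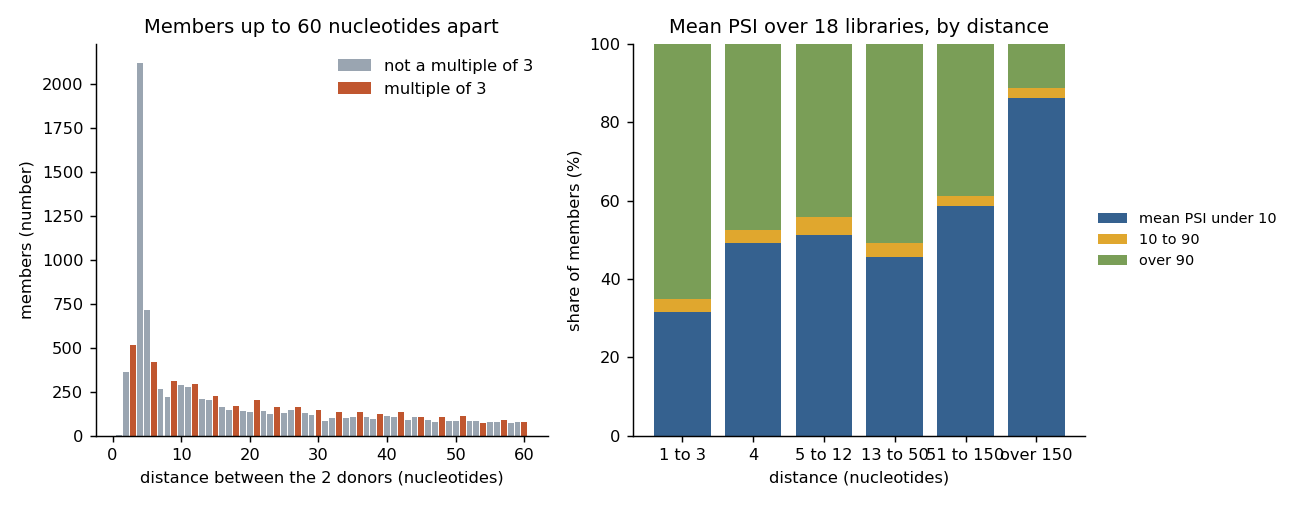
Left, number of two-site events at each distance from 1 to 60 nucleotides, with multiples of 3 in a second colour. Right, share of events whose mean PSI over the 18 libraries was under 10, from 10 to 90 or over 90, for 6 classes of distance. The bar at 4 nucleotides holds 2121 events, and the share over 90 falls to 11.1% beyond 150 nucleotides.

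PSI, the percentage of reads that used the downstream donor, was near 0 or near 100 for most events. Among the events 4 nucleotides apart, 48.6 to 49.1% had a PSI under 10, 3.3 to 3.96% a PSI from 10 to 90, and 47.2 to 47.6% a PSI over 90, as ranges over the 18 libraries. At the other distances the shares were 57.4 to 57.6%, 3.25 to 3.56% and 39.0 to 39.2%. The mean PSI was 49.1 to 49.3 in the first class and 40.8 to 40.9 in the second, with no overlap between the classes in any library. The median PSI, which in values split between both ends says little, was 27.1 to 35.0 in the first and 0.72 to 0.86 in the second.

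The share of pairs in which both donors were clearly used moved little between groups. Among the pairs 4 nucleotides apart it was 3.3 to 3.39% in NI, 3.91% in both shSCR libraries, 3.54 to 3.72% in shCPSF3#2, 3.58 to 3.63% in shCPSF3#1, 3.44 to 3.77% in shUL1#1 and 3.44 to 3.72% in shUL1#2. In the overexpression dataset it was 3.35 to 3.49% in NI, 3.63 to 3.77% in Empty and 3.68 to 3.96% in T7-TIA1. Both day 12 controls thus lay above their own NI libraries without overlap, by the PSI of a few events, since 72 and 70 of the 2121 pairs lay in this range in the NI libraries of the knockdown dataset. At the other distances NI held 3.25 to 3.33% and shSCR 3.38 to 3.39%, whereas NI of the overexpression dataset (3.28 to 3.39%) overlapped with Empty (3.32 to 3.56%). With 2 libraries against 2, an exact permutation test cannot reach a p below 0.05, and none was run on these shares.

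**Figure D2:**
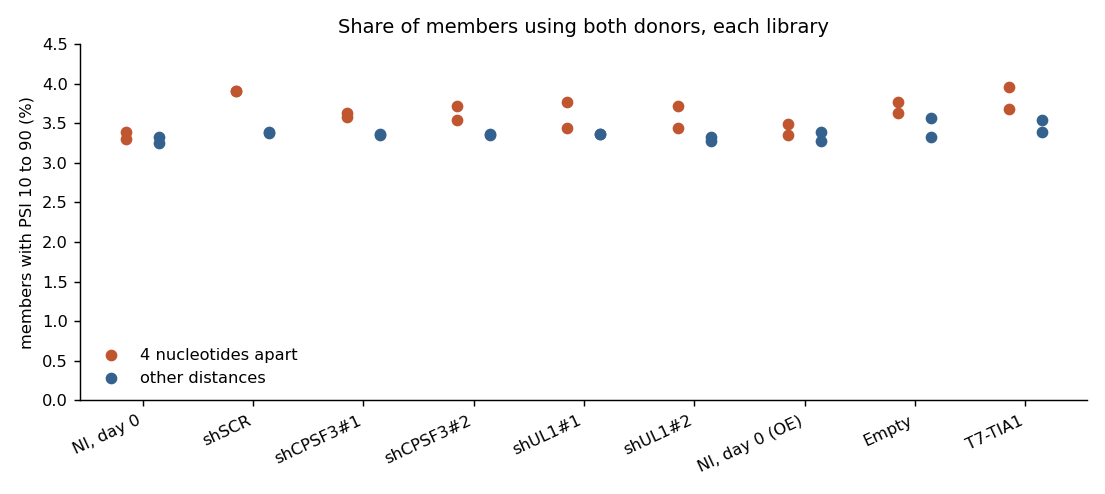
Share of two-site events with a PSI from 10 to 90 (%), 1 point for each of the 2 libraries of the 9 groups, for pairs 4 nucleotides apart and for the others. For the pairs at 4 nucleotides both shSCR libraries lie at 3.91% and the NI libraries of that dataset at 3.3 and 3.39%.

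Donor use differed between distances, without a steady order below 50 nucleotides. With PSI averaged over the 18 libraries, the downstream donor took over 90% of the reads in 65.0% of the pairs 1 to 3 nucleotides apart, in 47.5% at 4, in 44.1% at 5 to 12, in 50.7% at 13 to 50 nucleotides, in 38.7% at 51 to 150 and in 11.1% beyond 150. Mean PSI lay from 10 to 90 in 625 events, 72 of them 4 nucleotides apart. Of these 625, 43.5% had a distance that is a multiple of 3, compared with 33.3% of the remaining 18293. The share with intermediate PSI was 4.7% at 5 to 12 nucleotides, 3.39% at 4, and 2.59 to 2.67% beyond 50 nucleotides.

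The annotation separated the 2 ends of the distribution. Only the upstream donor was an annotated exon end in 10211 events (54.0%), whose median PSI was 0.0561, and only the downstream donor in 7203 (38.1%), whose median was 99.9. Both donors were annotated in 1455 events (7.69%), with a median PSI of 35.7, and 28.8% of these had a PSI from 10 to 90, against 0.95 and 1.4% where only the upstream or only the downstream donor was annotated. Among the pairs 4 nucleotides apart, both donors were annotated in 78 (3.68%), of which 21.8% were intermediate. Gene annotation is built from transcripts, so it is not independent of donor use.

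Where the bases could be read, the pairs 4 nucleotides apart differed from the others at the upstream donor. It began with GC in 58.1% of the 1273 readable pairs at 4 nucleotides and with GT in 41.9%, compared with 10.3% GC and 89.3% GT among 9237 readable pairs at other distances. The 4 bases between the donors were GCAG in 560 pairs (44.0%), with a median PSI of 99.9, and 534 of these had a PSI over 90. The segment GTAG followed with 171 pairs (median PSI 97.6), then GTGG with 128 (99.4), whereas GTAA (54 pairs, 0.0789) and GTGA (52 pairs, 0.0683) had PSI near 0. Reading these bases needs a transcript that contains them, which favours pairs with an annotated downstream donor, so the shares describe the readable pairs only.

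Donor strength was counted as matches to the 9-base consensus CAGGTAAGT, 3 exon and 6 intron bases, at each donor on the strand of the gene. Among readable pairs with GT at both donors, median PSI was 0.105 where the upstream donor had more matches (1050 pairs), 0.987 where the numbers were equal (708 pairs) and 99.6 where the downstream donor had more (1053 pairs). With both donors annotated the order was the same, with medians of 5.38, 21.9 and 73.3 over 133, 101 and 139 pairs. At 4 nucleotides, 110 pairs with the better upstream donor had a median PSI of 0.0303 and 42 with the better downstream donor one of 99.8. These are descriptions over events, which are not replicates.

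Each event was tested on its reads with limma, as log2 of the downstream over the upstream donor's reads, and p-values were adjusted over all event types. A "call" below is an adjusted p under 0.05. A test needed at least 10 reads of the less used donor over the dataset, which 4813 of the 18918 events passed in the knockdown dataset and 3385 in the overexpression dataset. For some events the groups outside a comparison held fewer than 10 reads of the less used donor. Such events were admitted by the reads of the groups compared, of 1 side or of both, and their calls rest on the groups that admitted them. These were 19 of the 210 calls in shSCR, 15 of 134 in the Cpsf3 shRNAs, 6 of 59 in the Hnrnpul1 shRNAs, 2 of 24 in Empty and 2 of 4 in T7-TIA1. Without them the shares called are 4.72, 3.22, 1.42, 0.946 and 0.0845%. Nothing in the labels says that the 2 libraries of a group came from separate cultures, so the p-values measure the spread between these libraries, which may be technical. Over the 625 intermediate events, replicates differed by a median of 4.19 to 4.64 PSI, compared with 3.46 to 3.73 expected from counting alone.

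Several facts of the libraries accompany the comparisons that follow. Reads over the two-site events summed to between 8978546 and 10944977 per library, with a median of 222 reads per event. Fibroblast markers (6 of 6 listed) summed to 14400 to 17600 scaled CPM in NI, 5820 to 6120 in shSCR and 12400 to 27300 in the Cpsf3 and Hnrnpul1 knockdowns, and to 16100 to 35700 in NI, 6160 to 6840 in Empty and 5160 to 5480 in T7-TIA1 of the other dataset. The epithelial genes Krt8 and Krt18, the only 2 of 4 epithelial markers listed in the knockdown dataset, summed to 15.9 to 20.5 in NI, 298 to 539 in shSCR and 31.7 to 221 in the knockdowns. None of the 4 was listed in the overexpression dataset, and none of the pluripotency (5) or blood (2) markers in either. Cpsf3 was at 86.7 and 118 scaled CPM in shSCR, 84.7 and 82.2 in NI, 44.3 ± 8.06 (SD, n = 2) in shCPSF3#1, and 42.4 and 77.1 in shCPSF3#2, whose second library was thus close to NI and to the lower shSCR library. Hnrnpul1 was at 156 and 185 in shSCR, 55.7 and 85.8 in shUL1#1, and 38.7 and 63.7 in shUL1#2, and Tia1 at 85.6 and 77.0 in Empty and 613 and 469 in T7-TIA1. The factors also differed outside their own perturbation. Hnrnpul1 was at 118 and 131 in shCPSF3#1 and 133 and 166 in shCPSF3#2, and Cpsf3 at 74.2 to 88.5 in the Hnrnpul1 knockdowns. Tia1 was at 69.7 and 66.7 in shSCR and 82.4 to 113 in the Cpsf3 and Hnrnpul1 knockdowns. The part of these marker differences in the splicing results was not tested. In bulk RNA a change of donor use within cells and a change in the mix of cells cannot be told apart, nor can fewer cells of a type and less RNA per cell.

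Between NI at day 0 and shSCR at day 12, which asks how donor use changed during induction, 210 of 4813 tested events were called (4.36%, against 5.9% of all events tested), 76 with higher and 134 with lower use of the downstream donor. In percent these were 1.58% higher and 2.78% lower, against 4.12% higher and 1.77% lower over all events tested, where PSI of other event types measures other things. The largest rises were in the chromatin reader genes Zmynd8 and Zmynd11 and the zinc transporter gene Slc39a11, and the largest falls in the ribosomal protein gene Rpl29, the bromodomain gene Baz2b and the ubiquitin ligase gene Ubr3. At 4 nucleotides, 18 of 581 tested pairs were called (3.1%), 8 higher and 10 lower, against 4.54% of the 4232 tested at other distances. Where both donors were annotated the share was 8.21% (91 of 1108). The difference between distance classes was not tested. Of the 210 calls, 85 changed by at least 10 PSI and 39 by less than 2. In 198 the libraries of the groups did not overlap, which is no separate support, since the calls rest on the same libraries. The matching share over all events was not counted. The count fell to 64 and 44 without NI replicate 1 or 2, and to 72 and 105 without shSCR replicate 1 or 2.

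**Figure D3:**
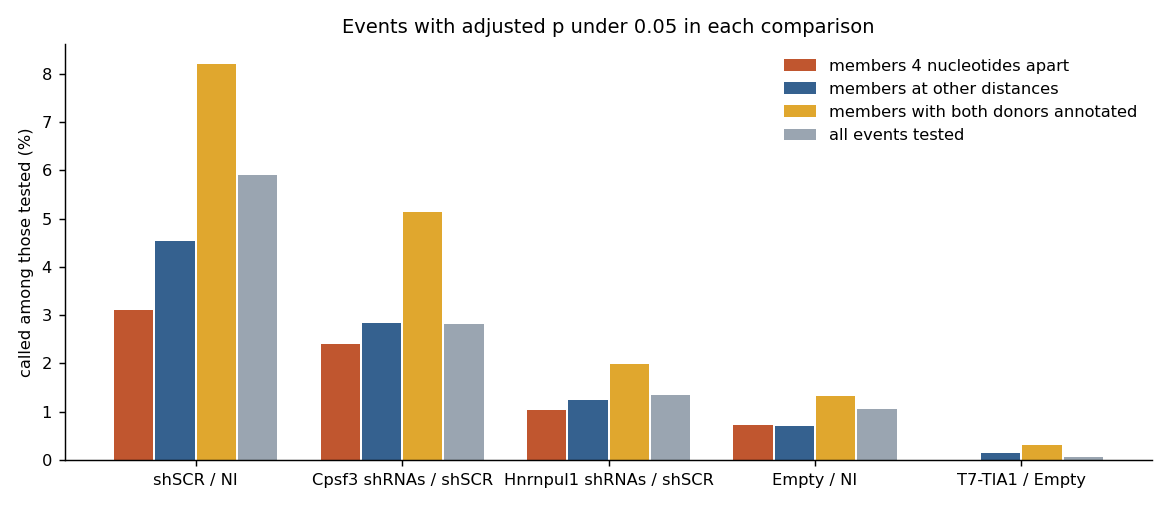
Share of tested events with a limma adjusted p under 0.05 (%), in each of 5 comparisons, for two-site events 4 nucleotides apart, those at other distances, those with both donors annotated (which overlap both classes), and all events tested. In shSCR against NI the shares are 3.1, 4.54, 8.21 and 5.9%.

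Zmynd11 encodes a reader of methylated histone H3.3. Its donors lie 168 nucleotides apart in the coding sequence (chr13, last exon bases at 9690446 and 9690278, minus strand), a multiple of 3. PSI was 12.1 and 11.8 in NI, 63.3 and 49.9 in shSCR, 21 and 21.4 in shCPSF3#1, 24.3 and 25.1 in shCPSF3#2, 25.2 and 22.9 in shUL1#1, and 20.9 and 24.8 in shUL1#2. Both shSCR libraries thus lay far above all others, with the knockdowns between NI and shSCR. The log2 ratio rose by 3.26 ± 0.27 (SE) from NI to shSCR (limma adjusted p = 1.96e-06). In the overexpression dataset PSI was 13.5 and 14.3 in NI, 26.7 and 18.3 in Empty, and 9.29 and 11.9 in T7-TIA1, and neither comparison there was called (adjusted p = 0.24 and 0.41).

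Zmynd8, another chromatin reader, has donors 156 nucleotides apart, also a multiple of 3 and in coding sequence. Its PSI was 17.1 and 18.2 in NI, 64.8 and 64.7 in shSCR, 41.3 to 49.1 in the 4 Cpsf3 knockdown libraries and 36.5 to 46.9 in the 4 Hnrnpul1 knockdown libraries. All 8 knockdown libraries thus lay between those of NI and shSCR without overlap. The rise from NI to shSCR was 3.04 ± 0.32 on the log2 scale (limma adjusted p = 2.09e-05).

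Slc39a11 has the 21-nucleotide pair printed above, where the downstream donor adds coding sequence and keeps the frame. PSI was 13.3 and 16.3 in NI and 54.3 and 60.3 in shSCR. In the knockdowns it was 12.3 and 9.67 (shCPSF3#1), 18.6 and 26.9 (shCPSF3#2), 9.08 and 25.1 (shUL1#1) and 11.7 and 23.9 (shUL1#2), all below both shSCR libraries. In the overexpression dataset it was 13.1 and 10.1 in NI, 49.8 and 29.7 in Empty, and 27.9 and 28.8 in T7-TIA1. It was called higher in shSCR (2.89 ± 0.44, limma adjusted p = 0.000745) and in Empty (2.27 ± 0.41, adjusted p = 0.0095), each against its own NI.

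Ubr3 encodes a ubiquitin ligase, and its pair printed above lies 12 nucleotides apart, so that the downstream donor adds coding bases in frame. PSI was 57 and 56.1 in NI and 21.1 and 25.6 in shSCR. It was 48.2 to 58.4 in the Cpsf3 knockdown libraries and 43.3 to 61.3 in the Hnrnpul1 knockdown libraries, and in the other dataset 56.1 and 62.1 in NI, 42.8 and 47.2 in Empty and 45.7 and 52.3 in T7-TIA1. The fall from NI to shSCR was called (-2.07 ± 0.27, limma adjusted p = 0.000173), whereas that from NI to Empty was not (adjusted p = 0.25), with no overlap of the libraries.

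Baz2b (105 nucleotides, coding) had a PSI of 83.2 and 77.9 in NI and of 60.4 and 27.5 in shSCR, a difference of -36.7 with a wide spread between the shSCR libraries (adjusted p = 0.0229). Rpl29 (174 nucleotides) fell from 99.5 in both NI libraries to 60 and 63 in shSCR (adjusted p = 2.03e-05), on 194 to 197 reads in NI and 46 to 50 in shSCR. Ribosomal protein genes have many near-identical processed copies, so reads of Rpl29 are uncertain.

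**Figure D4:**
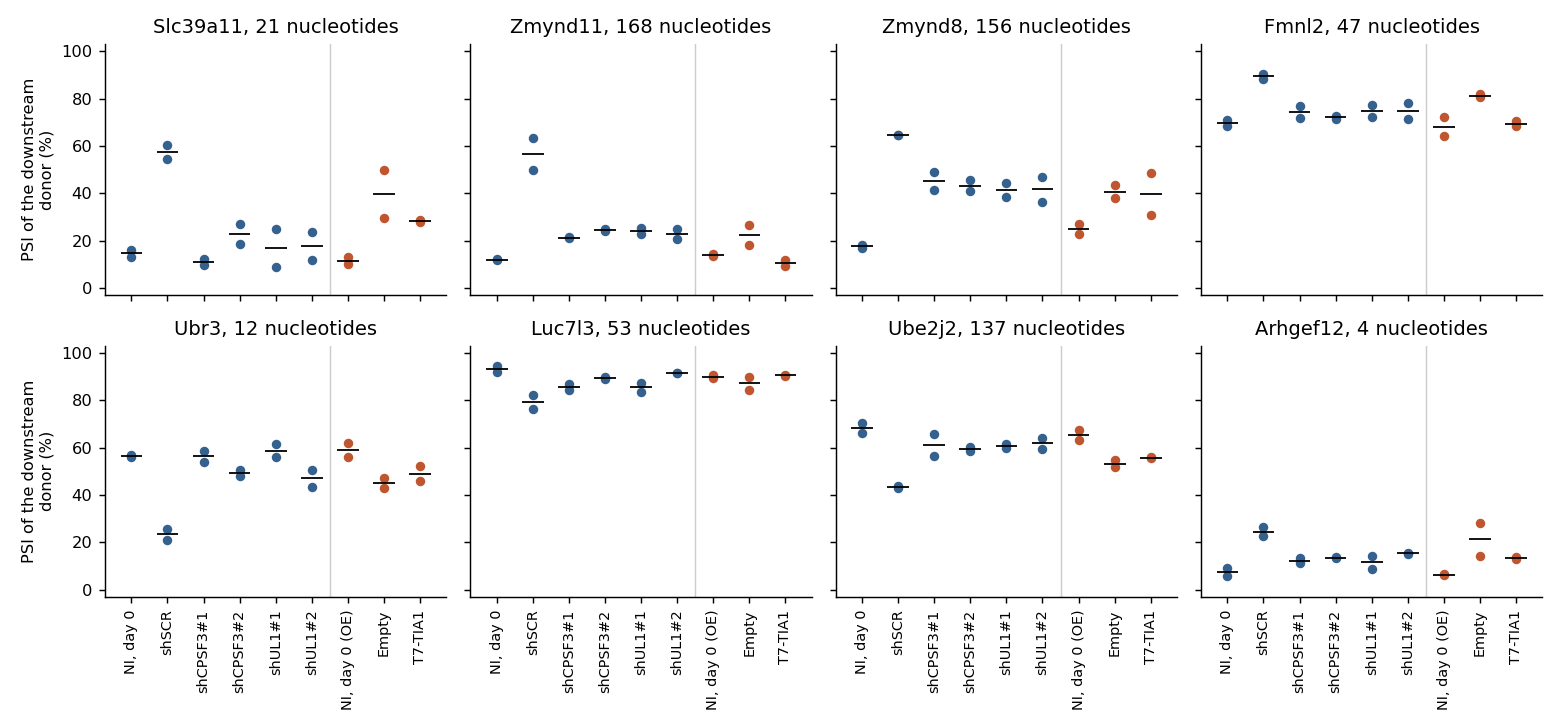
PSI of the downstream donor (%) in each library (points) with the mean of the 2 libraries (line), for 8 two-site events in the 9 groups, the knockdown dataset left of the grey line and the overexpression dataset right of it. In each of the 8 both shSCR libraries lie outside the range of the NI libraries.

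By gene group, the shares called between NI and shSCR in the lists below stand beside 5.9% of all events tested, and each rests on few calls. Of 120 tested events in splicing and 3′ end processing factors, Ddx46 and Tra2b rose and Ints8, Luc7l3 and Rbm3 fell (4.17% called). In Luc7l3, a relative of a U1-associated yeast protein, PSI of the 53-nucleotide pair was 94.3 and 92 in NI and 76.1 and 82.2 in shSCR (limma adjusted p = 0.000521). Among 148 tested events in cytoskeleton, adhesion and small GTPase genes, 4 rose and 5 fell (6.08%). The 4 that rose lie in Arhgef12 and Arhgef2, which activate small GTPases, in the GTPase gene Cdc42, and in the formin gene Fmnl2, whose PSI went from 70.9 and 68.2 to 88.3 and 90.5 (adjusted p = 0.00143). Those that fell include Cdc42ep4, Clasp1, Kif20b and the septin gene Sept6, where PSI went from 94.1 and 88.2 to 71.8 and 66.5 (adjusted p = 0.00509).

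In the zinc finger genes 5 of 82 tested events were called (6.1%, near the 5.9% of all events tested) and all fell, in Zfp445, Zfp516, Zfp553, Zfp617 and Zfp7. For Zfp445 the values were 57 and 51.1 in NI and 37 and 36.1 in shSCR (adjusted p = 0.027), and for Zfp7 28 and 30.4 in NI and 11.6 and 12.5 in shSCR (adjusted p = 0.0303). The median difference over the 82 events was 0.0 PSI. Of 107 tested events in chromatin regulators (2.8% called), Baz2b and the histone methyltransferase gene Nsd2 fell. Among 137 in ubiquitin and autophagy genes (3.65% called), Rnf13 rose, whereas Fbxo18, Ube2j2, Ube2t and Ubr3 fell. Ube2j2, a ubiquitin-conjugating enzyme of the endoplasmic reticulum, went from 66 and 70.3 to 43.7 and 42.9 (adjusted p = 0.00157).

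Of 68 tested events in mitochondrial genes (2.94% called), Mrps33, a subunit of the mitochondrial ribosome, fell from 42.5 and 40.1 to 21.4 and 25.7 (adjusted p = 0.0128), and Tomm5 of the outer membrane import complex also fell. Among 127 in cell cycle and DNA repair genes, Cdc42, Cenpa, Cenpt and Ercc1 were among those that rose and Cdc42ep4 and Rad18 fell (5.51% called). Cdc42 and Cdc42ep4 are in this list by their symbols and are known for actin and polarity rather than for the cell cycle. In Ercc1, a nuclease subunit of excision repair, the rise was from 0 in both NI libraries to 1.72 and 1.47, a change of under 2 PSI on 234 to 997 reads per library, and the event met the read minimum only with the 9 reads of its less used donor in shSCR.

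Pairs 4 nucleotides apart were called on smaller differences, a contrast that was not tested. In Arhgef12 (coding, both donors annotated, segment GTAG) PSI was 9.24 and 5.88 in NI, 26.3 and 22.5 in shSCR, 11.2 to 13.8 in the Cpsf3 knockdowns and 8.85 to 15.5 in the Hnrnpul1 knockdowns, and the rise to shSCR was called (1.91 ± 0.36, limma adjusted p = 0.00393). In the other dataset it was 6.12 and 6.77 in NI, 28.1 and 14.4 in Empty, and 13.1 and 13.9 in T7-TIA1, none of them called. Nsd2, which met the read minimum only with the reads of one side, was called on a change from 99.5 in both libraries to 96.8 and 96.6, and Tomm5 on one from 95.1 and 96.9 to 91.9 and 79.7. Over the 18 called pairs at 4 nucleotides the median absolute difference was 3.44 PSI, compared with 7.44 over the 192 called at other distances. Of the 18, Mia2, Smoc2, Aimp1 and Nsd2 met the read minimum only with reads of the groups compared, as did some of the 192. Medians without these events were not computed, so the contrast may depend on them.

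Intermediate pairs at 4 nucleotides differed in how far their balance moved. Cdk16, a cyclin-dependent kinase gene on the X chromosome, had group means within 3.55 PSI of one another, with single libraries from 36.4 to 47.1. The sialyltransferase gene St6galnac6 spanned 3.87 PSI between group means and Ccar1, a coactivator of transcription, 4.47. The widest ranges between group means were in Inpp4a (41.5), Stk11 (37.5) and the membrane protein gene Tmem44 (33.3), on as few as 24, 23 and 16 reads in a library. In Tmem44 the replicates of shCPSF3#1 were 21.1 and 100, and in Inpp4a those of T7-TIA1 were 50 and 100. In each gene this exceeds the range between the groups.

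The Cpsf3 shRNAs were compared with shSCR as the mean of both. Of 4813 tested events 134 were called (2.78%, against 2.82% of all events tested), 80 higher and 54 lower (1.66 and 1.12%, against 1.11 and 1.71% of all events tested). The largest rises were in Baz2b, the splicing factor gene Rbm5 and Ubr3, and the largest falls in Slc39a11, the chemokine gene Ccl25 and Zmynd11. At 4 nucleotides 14 of 581 were called, 7 in each direction. Of the 134 calls 41 changed by at least 10 PSI. The comparison shares the shSCR libraries with the one above, so the values are given side by side: over the 80 events called higher, the median PSI was 95.3 in NI, 87.9 in shSCR, 96.8 in shCPSF3#1 and 94.9 in shCPSF3#2, and over the 54 called lower it was 6.46, 19.0, 6.99 and 8.75. The knockdown groups lay near NI in these medians. The summed fibroblast markers of the 4 knockdown groups together spanned those of NI, as given above, but single markers departed from NI both ways, with Vim at 1660 to 2320 scaled CPM in the means of the 4 knockdown groups, 4610 in NI and 1320 in shSCR, and Col3a1 at 4580 to 9600, 1030 and 1140. The events were chosen with the shSCR values, so that the distance of shSCR from the other groups is partly fixed by the choice. The count was 26 and 50 without shSCR replicate 1 or 2, 61 and 65 without shCPSF3#1 replicate 1 or 2, and 54 without shCPSF3#2 replicate 1.

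In Rbm5, which is known to regulate splice site choice in apoptosis genes, PSI of the 26-nucleotide pair was 60.4 and 53.8 in NI, 27.8 and 49.2 in shSCR, 66.4 and 72.2 in shCPSF3#1, and 71.5 and 74.5 in shCPSF3#2. All 4 knockdown libraries lay above both shSCR libraries, which themselves differed widely (1.84 ± 0.35, limma adjusted p = 0.00821). In Ccl25 (43 nucleotides) PSI was 50.1 and 46.7 in NI, 64.4 and 60.8 in shSCR and 23.6 to 32.7 in the 4 libraries (-1.92 ± 0.36, adjusted p = 0.00702), below NI as well. Its Hnrnpul1 knockdown values of 45.4 to 56.9 were not called (adjusted p = 0.48). Slc39a11 (-2.77 ± 0.37, adjusted p = 0.000688), Zmynd11 (-2.13 ± 0.23, adjusted p = 7.32e-05) and Ubr3 (1.87 ± 0.23, adjusted p = 0.000233) moved with the values given above.

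The shares called in the lists below stand beside 2.82% of all events tested, and each rests on few calls. Rbm5 rose and Tra2a and Tra2b fell among the splicing factors (2.5% of 120 called). In the cytoskeletal list Clasp1 and Sept6 were among those that rose, and Arhgef12, Cdc42, Cdh11, Fmnl2, Itga1 and Kif7 fell (6.08% of 148). In ubiquitin and autophagy genes 4 rose (Fbxo18, Ube2j2, Ubr3 and Usp40) and 3 fell (Rnf13, Usp24 and Usp8), which is 5.11% of 137. Among mitochondrial genes 3 of 68 were called (4.41%), all higher, in Mrpl28, Mrps33 and the ornithine carrier gene Slc25a15, against 1.11% higher and 1.71% lower over all events tested. Mrps33 had a PSI of 43.3 to 47.9 in the Cpsf3 knockdowns (adjusted p = 0.00297), and Mrpl28, with its GC donor upstream, went from 1.22 and 0.98 in shSCR to 1.47 to 3.19 (adjusted p = 0.0395). Among cell cycle and DNA repair genes Orc3 and Radil rose and Cdc42 fell, where Radil is a Rap GTPase effector that the list holds by its symbol. Of the listed chromatin regulators, which do not include Zmynd8 and Zmynd11, Baz2b was the single call. The calls of Itga1, Kif7, Usp40 and Radil met the read minimum only with the reads of shSCR, and they are included in the shares of their lists. No zinc finger event was called, with a median difference of -0.328 PSI over 82.

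The Hnrnpul1 shRNAs gave 59 calls against shSCR (1.23%, against 1.35% of all events tested), 32 higher and 27 lower (0.665 and 0.561%, against 0.623 and 0.724% of all events tested). Of these calls 23 changed by at least 10 PSI. Among called events whose libraries did not overlap, the rule used for naming in each comparison, the largest rises were in Ubr3, Rbm5 and Sept6 and the largest falls in Slc39a11, Zmynd11 and Zmynd8. Habp4 (5 nucleotides) had a larger mean rise than Sept6 (20.7 against 19.3 PSI), but its PSI was 58.6 and 100 in shSCR and 100 in all Hnrnpul1 libraries, so that the libraries overlapped, and all 19 reads of its less used donor in the dataset came from shSCR. At 4 nucleotides 6 of 581 were called, 5 higher and 1 lower. Over the 32 called higher, the median PSI was 96.9 in NI, 90 in shSCR, 97.4 in shUL1#1 and 97.8 in shUL1#2, and over the 27 called lower 5.21, 18.9, 6.94 and 6.94. Again the shSCR libraries are shared with both comparisons above. The count was 12 without shSCR replicate 1 and 37 without replicate 2, and 23 to 36 without any 1 Hnrnpul1 library.

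Ubr3 (1.86 ± 0.23, limma adjusted p = 0.000465), Slc39a11 (-2.6 ± 0.38, adjusted p = 0.00195), Zmynd11 (-2.1 ± 0.23, adjusted p = 0.000187) and Zmynd8 (-1.34 ± 0.25, adjusted p = 0.0115) all moved by 20 PSI or more. In Sept6 PSI was 87.3 and 90.1 in shUL1#1 and 93.8 and 82.6 in shUL1#2, above both shSCR libraries (adjusted p = 0.0243). In the chromatin remodeler gene Chd3 (46 nucleotides) PSI was 37.3 and 30.1 in NI, 29.3 and 30.6 in shSCR, 16.6 and 13.3 in shUL1#1, and 16.1 and 18.4 in shUL1#2 (-1.16 ± 0.27, adjusted p = 0.0406). All 4 Hnrnpul1 knockdown libraries of Chd3 thus lay below NI and shSCR alike. The Cpsf3 knockdown libraries, at 17.6 to 20.1, did so too, with an adjusted p of 0.091. The shares called in the lists stand beside 1.35% of all events tested, and each rests on 4 calls or fewer. Luc7l3 and Rbm5 rose and Tra2b fell among the splicing factors (2.5% of 120), and Sept6 rose and Cdc42, Fmnl2 and Kif7 fell in the cytoskeletal list (2.7% of 148). In ubiquitin and autophagy genes Fbxo18, Ube2j2 and Ubr3 rose and Rnf13 fell (2.92% of 137). Mrps33 was the 1 mitochondrial call (1.47% of 68), Orc3 and Radil rose and Cdc42 and Cenpa fell in the cell cycle list (3.15% of 127), and none of the 82 zinc finger events was called. Kif7 and Radil again met the read minimum only with the reads of shSCR.

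Between NI and Empty, the second and independent comparison of day 12 with day 0, 24 of 3385 events were called (0.709%, against 1.05% of all events tested), 10 higher and 14 lower (0.295 and 0.414%, against 0.497 and 0.557% of all events tested). Of these calls 10 changed by at least 10 PSI. The kinase gene Stk11 (LKB1), Lpp and Slc39a11 rose most, and Tmem63a, Yes1 and Ccnt2 fell most. In Stk11, whose donors are 4 nucleotides apart outside the coding sequence, PSI was 42.9 and 39.1 in NI, 75.3 and 81.7 in Empty, and 68.5 and 65.6 in T7-TIA1 (2.3 ± 0.44, limma adjusted p = 0.0142), on 23 to 49 reads in NI and 89 to 104 in Empty. In the knockdown dataset it was 53.6 and 46.8 in NI and 60.2 and 75.5 in shSCR, not called (adjusted p = 0.12). The other two calls at 4 nucleotides, both lower, were in Timp2 and Mmadhc, which are named after their values were seen, and Timp2 met the read minimum only with the reads of Empty. The total was 3 without NI replicate 1, without NI replicate 2 or without Empty replicate 1.

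Lpp, a LIM domain protein of focal adhesions, has donors 179 nucleotides apart, and the last exon base before the upstream one is not coding. Its PSI was 18.7 and 23.3 in NI and 52.5 and 58.3 in shSCR of one dataset, and 26.6 and 20 in NI, 58.8 and 49.1 in Empty and 54.4 and 43.8 in T7-TIA1 of the other. It was called in both (adjusted p = 0.00393 and 0.038), and its knockdown values of 32 to 48.7 lay between those of NI and shSCR. Tmem63a, a mechanosensitive channel gene, fell from 86.9 and 80.7 to 38.1 and 61.2 (adjusted p = 0.0211), the Src family kinase gene Yes1 from 58.6 and 42.4 to 20.9 and 21.6 (adjusted p = 0.0441), and Ccnt2, a cyclin of the elongation factor P-TEFb, from 58.3 and 60.3 to 28.7 and 37.7 (adjusted p = 0.0233). In shSCR these 3 were also lower than in NI (74 and 62.5, 41.6 and 21.9, 48.6 and 39.9) and were not called. Of the lists, the cell cycle list held 1 call (Ccnt2, lower) among 97 tested, which is 1.03%, against 1.05% of all events tested.

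The 2 comparisons of day 12 with day 0 share no library. Of the 210 events called in shSCR, 186 were tested in both datasets, and 166 of them (89.2%) had a difference of the same sign in Empty. Of 84 that changed by at least 10 PSI in shSCR, 79 (94.0%) did, with a median difference of 17.1 PSI in shSCR and 8.29 in Empty. Over all 3229 events tested in both and different from 0 in both, 60.9% had the same sign. The 10 events called in both datasets had the same sign in both, and they make up 4.76% of the calls in shSCR and 41.7% of those in Empty. The summed fibroblast markers were lower at day 12 in both datasets, but Col3a1 and Thy1 were not lower in shSCR (1140 and 340 scaled CPM on average, against 1030 and 342 in NI, within the spread of the libraries), and Col3a1 of both Empty libraries lay between those of NI.

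**Figure D5:**
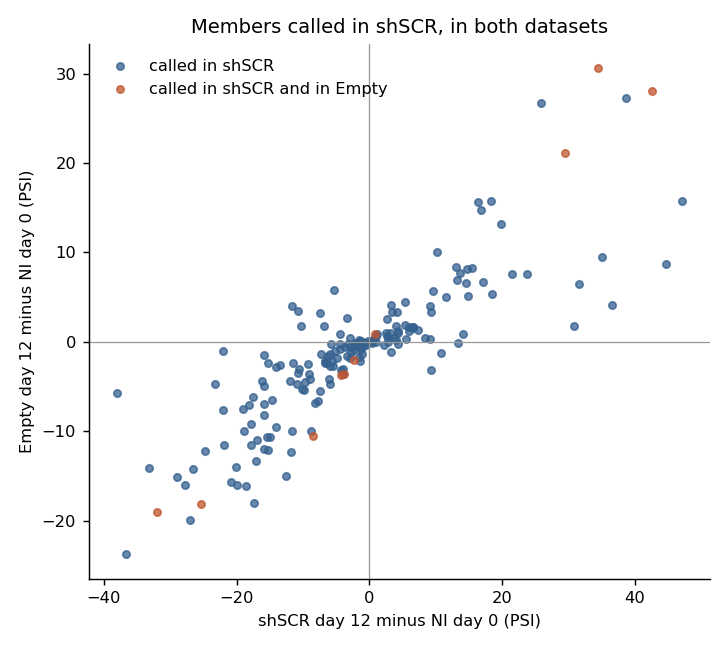
Difference in PSI of shSCR day 12 minus NI (x axis) and of Empty day 12 minus NI (y axis) for the 186 two-site events called in shSCR and tested in both datasets, with the 10 called in both in a second colour. Of the 186 points, 166 lie in the quadrants of equal sign.

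T7-TIA1 against Empty gave 4 calls of 3385 (0.118%, against 0.059% of all events tested), 2 higher and 2 lower (0.0591% each, against 0.0135 and 0.0455% of all events tested), with 195 events at an unadjusted p under 0.05. The count was 1 without Empty replicate 1, 2 without Empty replicate 2 or T7-TIA1 replicate 2, and 3 without T7-TIA1 replicate 1. None was 4 nucleotides apart (0 of 415, with 36 at an unadjusted p under 0.05), and none changed by 10 PSI. Of the 4, 3 lie in Tia1 itself, where the reads of these events were 5497 to 8603 in the T7-TIA1 libraries and 125 to 345 in the other 16. PSI of the 5-nucleotide pair printed above was 96.7 and 96.9 in Empty and 100 in both T7-TIA1 libraries (limma adjusted p = 0.000323). That of a 6-nucleotide pair was 2.18 and 1.11 in Empty and 0.01 and 0.05 in T7-TIA1 (adjusted p = 0.00186), and that of a 91-nucleotide pair 0.67 and 1.17 against 0.03 and 0.02 (adjusted p = 0.0057), which met the read minimum on 10 reads of the less used donor in all, 5 of them in Empty and 3 in T7-TIA1. Splicing of the endogenous gene and reads of the introduced TIA1 sequence cannot be told apart in these values. The fourth call was in the proteasome activator gene Psme4 (5 nucleotides), with a PSI of 94.5 and 94.8 in Empty and 100 in both T7-TIA1 libraries and in every other library. All 59 reads of its less used donor in the dataset came from Empty, so the event could be tested only through the group that differs, and its adjusted p of 0.0392 is given as a description. The 3 other pairs in Tia1 were not called or not tested.

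The largest differences between T7-TIA1 and Empty by size alone did not pass the test. In Ccdc167 PSI was 12.5 and 32.1 in Empty and 42.9 and 68.8 in T7-TIA1 (adjusted p = 0.7), on 15 to 38 reads. In 2410089E03Rik it was 43.4 and 18.1 in Empty and 0 and 9.13 in T7-TIA1 (adjusted p = 0.71). That event was called higher in shSCR than in NI (2.31 and 2.56 to 35 and 21.4, adjusted p = 0.00602). By the rule of at least 10 PSI between means and at least 5 between the nearest libraries, which holds no test, 48 of the 18918 events differed between T7-TIA1 and Empty (0.254%, against 0.232% of all events), 108 between Empty and NI (0.571%, against 0.602%), 165 between shSCR and NI (0.872%, against 1.15%), 59 between the Cpsf3 shRNAs and shSCR (0.312%, against 0.389%) and 53 between the Hnrnpul1 shRNAs and shSCR (0.28%, against 0.328%). Of these, 8, 12, 14, 4 and 6 were 4 nucleotides apart, which is 0.377, 0.566, 0.66, 0.189 and 0.283% of the 2121 pairs at that distance. At other distances the shares were 0.238, 0.572, 0.899, 0.327 and 0.28%.

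The remaining genes fixed by name moved little. Cpsf3 had 3 two-site events. In the 14-nucleotide pair, annotated at both donors, PSI was 2.63 and 2.87 in NI, 2.61 and 1.75 in shSCR, 3.63 and 5.47 in shCPSF3#1 and 3.29 and 2.53 in shCPSF3#2 (adjusted p = 0.28), and the other two pairs, one of them 4 nucleotides apart, were at or near 0. In Hnrnpul1 the 3 pairs had a PSI of at most 0.44 in every library. Bcl2l1, an apoptosis regulator and a textbook case of donor choice, had 1 pair 155 nucleotides apart with a PSI of 88.4 to 95.3 over the 18 libraries, not called in any comparison. Fgfr1 had 3 pairs, at 131, 4 and 2 nucleotides, all with a PSI of 98.6 or more in every library. Wt1 had none.

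Of the calls named here, those of Zmynd11 and Ubr3 in the 3 comparisons of the knockdown dataset, of Fmnl2 in the comparisons of shSCR with NI and of the Cpsf3 shRNAs with shSCR, and of Luc7l3, Ube2j2, Lpp, Zmynd8, Slc39a11 and Rpl29 in shSCR against NI held in every alternative tried. Alternatives were run for the 70 calls of events chosen by the rule for naming, and not for other calls mentioned here, such as those named only as members of a list. Each of the remaining ones among the 70 was lost in at least 1 alternative, and none of the 70 changed its direction.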

How the data were processed

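RNA-seq libraries (stranded, poly(A)-selected, paired-end) were grouped by their titles. PSI values in percent were made by the authors with *vast-tools* 2.2.2 in strand-specific mode on mm10 and deposited without a coverage filter, next to a text holding the coverage score and the reads for each site. The deposited expression signal is CPM by the authors, from *STAR* 2.7.1a and *edgeR* 3.16.5, relative to a library size scaled per library and filtered on level and variation; it served for markers and targeted genes only.

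Events needed a score of VLOW or better (at least 10 reads) in every library. The downstream donor's PSI was used, and its partner's PSI, present for 18881 events, summed with it to 100 within 0.02. *limma* 3.58.1 in R 4.3.3 was run on log2((downstream reads + 1)/(upstream reads + 1)) of all event types, weighted by 1/(counting variance + 0.1), with robust empirical Bayes, 1 fit per dataset (12 and 6 libraries), two-sided, and Benjamini-Hochberg adjustment over all events with at least 10 reads of the less used form. The fit was tested on simulated data. The ∆PSI rule of the study (at least 10 between means, at least 5 between the nearest libraries) was applied without a test. The mean of both shRNAs stood for each factor. Donor bases were read from GENCODE M21 transcripts in Python 3.11.15.

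The events, gene lists and tests were chosen with earlier results of these data known. Named events were, per comparison, the 3 largest rises and falls among called events without overlap of libraries, filled by size where fewer were called; the 3 widest and 3 narrowest ranges at 4 nucleotides; all in Cpsf3, Hnrnpul1, Tia1, Bcl2l1, Wt1 and Fgfr1; up to 4 per gene list by adjusted p; and the 3 largest differences between both sets of NI libraries. Alternatives were the replicate block, PSI as the scale, fewer libraries in the fit, 0.5 read added, stricter coverage, no read minimum and leaving out each library, where the lone library of a group is assumed to vary like the other groups. Some events are not reported here.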

Additional observations from a re-analysis of the deposited data

How the results depend on the processing

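Depth limits these results, since only 6024 of the 18918 events had at least 10 reads of the less used donor over the 18 libraries. Requiring LOW coverage or better in all 18 libraries left 17508 events and moved the median PSI from 32.5 to 22.7 at 4 nucleotides and from 0.737 to 0.663 at other distances, while leaving out any 1 library gave 31.9 to 32.9 and 0.732 to 0.754. In the order shSCR, Cpsf3 shRNAs, Hnrnpul1 shRNAs, Empty and T7-TIA1, the calls were 210, 134, 59, 24 and 4. They were 96, 49, 22, 0 and 0 with PSI in percent as the scale, 108, 104, 48, 25 and 3 with only the groups compared, and 771, 77, 14, 0 and 0 with no minimum of reads, a setting in which events without any read of one donor have a ratio that follows the total of reads by construction. With 0.5 read added or LOW coverage the counts stayed within 1.5 times of these. Leaving out 1 library gave 44 to 105, 26 to 104, 12 to 37, 3 to 33 and 1 to 3. The replicate numbers are not shown to pair the libraries, since only 2 exist. Same-numbered deviations correlated at 0.103 to 0.254 in all 10 pairs of day 12 groups of the knockdown dataset and at 0.113 between Empty and T7-TIA1, but at -0.0256 to 0.0481 in the pairs with NI. With the replicate block there were 266, 159, 73, 58 and 4 calls, and each of the 70 calls of events chosen by the rule for naming held under it.

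By the ∆PSI rule the counts of 165, 59, 53, 108 and 48 became 88, 27, 20, 49 and 18 at a minimum of 15 PSI, 215, 137, 97, 142 and 70 with no gap, and 131, 51, 39, 86 and 26 at LOW coverage. Leaving out 1 library, which eases the gap, gave 223 to 249 (highest without shSCR replicate 2), 62 to 151 (127 and 151 without shSCR replicate 1 or 2, 91 without shCPSF3#2 replicate 2), 55 to 120 (118 and 120 without shSCR replicate 1 or 2), 139 to 185 (175 without NI replicate 2, 185 without Empty replicate 2) and 96 to 121. Of the 70 calls of events chosen by the rule for naming, 14 held in all alternatives, 20 in all those that kept every library, and none changed direction. The cause of each other change was not tested.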

Other observations

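Both datasets start from non-infected fibroblasts. Between their NI libraries, 41 of the 18918 events differed by at least 10 PSI with a gap of at least 5, and 70 by at least 10 PSI. The share over events of all types was not counted here, so these counts do not show whether two-site donors differed more than other events. Rpl29 stood furthest apart, with a PSI of 99.5 in both NI libraries of one and of 14.6 and 11.4 in NI of the other, and all 6 overexpression libraries, at 5.95 to 14.6, lay below all 12 knockdown libraries, at 30 to 99.5. Its reads also differed, at 46 to 317 per library in the first dataset and 752 to 1165 in the second. In Inpp4a, a phosphoinositide phosphatase gene with donors 4 nucleotides apart and GCAG between them, PSI was 100 in both NI libraries of the first dataset and 46.8 and 70.3 in the second. It was 98.2 to 100 in 10 of the 12 knockdown libraries and 56.6 and 65.3 in shCPSF3#2, on 24 to 53 reads per library. In Empty it was 65.3 and 100 and in T7-TIA1 50 and 100, so replicates differed widely and the datasets overlapped. In the homeobox gene Hmbox1 (72 nucleotides) PSI was 0 against 34.1 and 35.8, and it was 20.9 to 38.4 in all 6 overexpression libraries and 0 to 8.13 in the 12 others. The datasets differ in more than the cells, and these differences were not tested.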
